A study of Mus musculus with 4 samples.

Results

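Transcription factor genes of the AP-1 family and its close relatives, Jun, Junb, Atf3, Maff and Fosl1, were examined in fetal livers lacking Stk40. They are the 5 probe sets that carry 1 of these symbols alone in a table of 2-fold changes that the authors deposited, 1 probe set per gene, out of 1418 probe sets with a single symbol there and 45101 on the array. That table was made from the same comparison of genotypes, so the difference between WT and Stk40 KO in these 5 genes is how they came to be named, and it is described below without a test. Any other probe set of these genes has no name here.
Total RNA of fetal livers at E14.5 was hybridized to 4 Affymetrix arrays, with 2 arrays for each genotype, WT and Stk40 KO. All embryos were of the C57BL/6J strain. The sample labels speak of fetal liver cells and the paper's methods of livers. The embryos came from matings of heterozygotes, and the KO is a conventional one, so every cell of the embryo lacks the gene. Each array holds RNA pooled from 6 livers of 1 genotype, so the spread between arrays is the spread between 2 pools. In RNA of unsorted cells of an organ, more cells of a type and more RNA per cell cannot be told apart.

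AP-1 is a pair of basic leucine zipper proteins, one of the Jun family and one of the Fos, ATF or Jun family, that binds short palindromes in promoters and enhancers. Many of its genes are immediate early genes, transcribed within minutes of a growth factor, a cytokine such as TNF-α or cell stress, largely through the Jun N-terminal kinase and ERK pathways. In the mouse embryo, Jun is needed for the liver to form normally. The human JUN and ATF3 promoters hold sites of the AP-1 or ATF type through which these factors act on their own genes.
Promoter sequence from RefSeq (build GRCm38.p6) was found for 4 of the 5 genes, Jun, Junb, Atf3 and Maff, in 6 windows of 250 bases before a transcription start, since Maff has 3 starts. The windows printed here are the 4 of these 6 with a match to TGACNTCA, which takes in the cyclic AMP response element, or to its inner part ACGTCA, both searched on both strands. Matches are in capitals and overlap where ACGTCA lies within TGACNTCA. The windows are shown for these matches alone. A link between the matches and the readings of the genes on the arrays was not tested.
Jun, chr4:95052223-95052472, minus strand: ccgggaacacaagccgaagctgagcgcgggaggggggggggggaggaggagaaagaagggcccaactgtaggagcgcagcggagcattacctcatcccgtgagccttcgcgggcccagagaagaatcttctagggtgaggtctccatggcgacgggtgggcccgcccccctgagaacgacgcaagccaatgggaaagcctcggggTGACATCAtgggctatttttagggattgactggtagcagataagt
Atf3, chr1:191183334-191183583, minus strand: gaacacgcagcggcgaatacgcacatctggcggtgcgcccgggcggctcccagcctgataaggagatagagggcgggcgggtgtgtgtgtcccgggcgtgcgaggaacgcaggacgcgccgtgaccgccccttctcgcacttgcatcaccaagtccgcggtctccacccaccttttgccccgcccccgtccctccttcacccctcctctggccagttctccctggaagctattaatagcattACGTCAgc
Maff, start 2, chr15:79347270-79347519, plus strand: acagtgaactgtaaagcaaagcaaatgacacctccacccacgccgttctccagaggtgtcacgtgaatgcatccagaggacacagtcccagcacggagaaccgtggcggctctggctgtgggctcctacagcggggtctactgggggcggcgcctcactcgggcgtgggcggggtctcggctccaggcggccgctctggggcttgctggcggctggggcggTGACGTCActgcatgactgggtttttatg
Maff, start 3, chr15:79348152-79348401, plus strand: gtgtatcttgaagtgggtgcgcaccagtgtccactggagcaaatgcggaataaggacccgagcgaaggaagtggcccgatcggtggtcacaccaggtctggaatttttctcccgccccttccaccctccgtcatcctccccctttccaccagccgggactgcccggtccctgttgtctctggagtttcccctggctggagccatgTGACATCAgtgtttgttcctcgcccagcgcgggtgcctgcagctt
Jun and start 3 of Maff share the 8 letters TGACATCA at the same distance, 45 to 38 bases before the start. Start 2 of Maff holds the full palindrome TGACGTCA, 29 to 22 bases before it, and Atf3 holds ACGTCA 8 to 3 bases before it. TGACNTCA occurs in 7.49% and ACGTCA in 6.47% of the 32851 mouse promoter windows of this length. TGANTCA, a pattern that takes in the classical AP-1 site but is looser, occurs in 6.75% of them and was in no window of the 4 genes. The windows of Junb (on chromosome 8) and of start 1 of Maff held none of these 3 motifs. A match to the letters is a description of the window and does not show that a factor binds there.

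Stk40 checks the genotypes. Its named probe set read 59.9 and 52.2 in WT and -98.9 and -111 in Stk40 KO, so the genotypes do not overlap, but all 4 values lie within the noise, and where its probes sit relative to the deletion was not examined. Noise was judged from the negative values, which arise where mismatch probes are brighter than matched probes. Their absolute size stayed under 143 in 95% of cases, and this served as the noise level. Between 24.1% and 28.5% of probe sets exceed it on each array. The deposited intensities were not scaled between arrays, and spiked hybridization controls, which are added in equal amounts to every sample, read 1.24, 1.24 and 1.37 times their level on WT replicate 1 on WT replicate 2, Stk40 KO replicate 1 and Stk40 KO replicate 2. The values of the 5 genes are therefore also given with all arrays scaled to the same 75th percentile, and for other genes the calls that differ there are named. The ratio of the 3′ to the 5′ probe set, a measure of RNA integrity, was 1.27 and 1.39 for Gapdh in WT and 1.18 and 1.33 in Stk40 KO.

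Junb, a Jun family subunit that restrains the growth of myeloid cells in mice, was the brightest of the 5. It read 54.6 and 108 in WT and 122 and 207 in Stk40 KO fetal livers, means of 81.2 ± 37.6 and 165 ± 59.5 (SD, n = 2 arrays). Both Stk40 KO values lay above both WT values, but the lower Stk40 KO value was 1.14 times the higher WT value. Since both WT values and 1 of the 2 Stk40 KO values lie under the noise level, no fold is read from them. It was brighter than 60.2% and 68.7% of probe sets on the WT arrays and than 69.7% and 77.0% in Stk40 KO. At equal 75th percentiles Junb read 64.9 and 107 against 112 and 192, and the genotypes still did not overlap.
Jun, the founding AP-1 subunit and the target of the Jun N-terminal kinases, read 25.3 and 52.4 in WT and 54.7 and 122 in Stk40 KO fetal livers. WT replicate 2 and Stk40 KO replicate 1 were almost level, and at equal 75th percentiles they changed places, with 30.0 and 51.8 against 50.1 and 114, so the genotypes overlapped. Means as deposited were 38.8 ± 19.2 and 88.6 ± 47.9 (SD, n = 2 arrays).
Atf3, a stress-induced partner of Jun that represses transcription as a homodimer, read 20.8 and 34.0 in WT and 45.7 and 76.5 in Stk40 KO fetal livers. Both Stk40 KO values lay above both WT values, also at equal 75th percentiles (24.7 and 33.6 against 41.9 and 71.1), but all 4 lie under the noise level. Means as deposited were 27.4 ± 9.32 and 61.1 ± 21.8 (SD, n = 2 arrays).
Maff, a small Maf protein with no activation domain of its own that pairs with NF-E2 proteins, read 22.2 and 21.9 in WT and 27.5 and 65.7 in Stk40 KO fetal livers. Its high mean in Stk40 KO, 46.6 ± 27.1 against 22.0 ± 0.193 in WT (SD, n = 2 arrays), came from 1 array, Stk40 KO replicate 2. At equal 75th percentiles its values were 26.4 and 21.7 against 25.1 and 61.0, and the genotypes overlapped.
Fosl1, which encodes the Fos family subunit Fra-1, read 1.64 and 0.182 in WT and -3.18 and -3.55 in Stk40 KO fetal livers. The values do not overlap, but all 4 are within 4 units of 0, brighter than just 17.6% to 25.2% of the probe sets on their array, and no level of Fosl1 could be measured. It counts as down in the deposited table through the raising of negative values to 0.1 before the ratio is taken.

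By the fold rule, read from the paper's methods as a ratio of mean intensities of at least 2 or at most 0.5, Junb, Jun, Atf3 and Maff count as up and Fosl1 as down. Of all 32833 probe sets that the rule keeps, 3.8% are up and 1.57% are down, and the 5 genes were taken from these, so nothing is read from their count. The ratios of means were 2.28 for Jun, 2.23 for Atf3, 2.11 for Maff and 2.03 for Junb, all close to the threshold of 2. Junb lies nearest inside it, and genes just outside it have no name here. At equal 75th percentiles they were 2.0, 1.94, 1.79 and 1.77, and only Jun, with Fosl1 on the low side, still counted, where 2.49% of probe sets are up and 2.22% are down. All 4 ratios compare means that lie under the noise level in WT, and for Jun, Atf3 and Maff in both genotypes, so no fold is read from them. As deposited, both Stk40 KO arrays were above both WT arrays for these 4 genes, as for 32.7% of all probe sets. At equal 75th percentiles this held for Junb and Atf3, against 16.6% of all probe sets. Fosl1 was lower on both Stk40 KO arrays in both scalings, as were 9.78% of probe sets as deposited and 19.8% at equal 75th percentiles.
None of the 5 probe sets was bright enough for the test across the array, limma on log2 intensities, which took the 12600 probe sets above the noise level on at least 2 arrays. With an adjusted p under 0.05 as the limit, 2.25% of these rose and 0.0873% fell, or 1.21% and 0.674% at equal 75th percentiles.

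For Jun and Junb, the arrays of 1 genotype differed from each other about as much as the genotypes did. Jun was 2.07 times as high on WT replicate 2 as on WT replicate 1 and 2.24 times as high on Stk40 KO replicate 2 as on Stk40 KO replicate 1, beside the ratio of 2.28 between the genotype means. For Junb these within-genotype ratios were 1.97 and 1.69, and for Atf3 1.63 and 1.67. Maff stood apart, with 0.988 between the WT arrays and 2.39 between the Stk40 KO arrays.
Except for Junb on Stk40 KO replicate 2, these readings lie under the noise level, so the ratios describe the readings and are not folds of expression. The readings of Jun, Junb and Atf3 on replicate 2 were 1.5 or more times those on replicate 1 in both genotypes, which is so for 3.36% of the 32305 probe sets that are positive on all arrays. The limit of 1.5 was chosen after their values were seen. At equal 75th percentiles Jun and Junb remained so, with 1.72 and 2.27 for Jun and 1.64 and 1.71 for Junb, against 2.55% of probe sets, while Atf3 had 1.36 and 1.70. The labels give a replicate number but no litter, day or batch behind it.

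**Figure D1:**
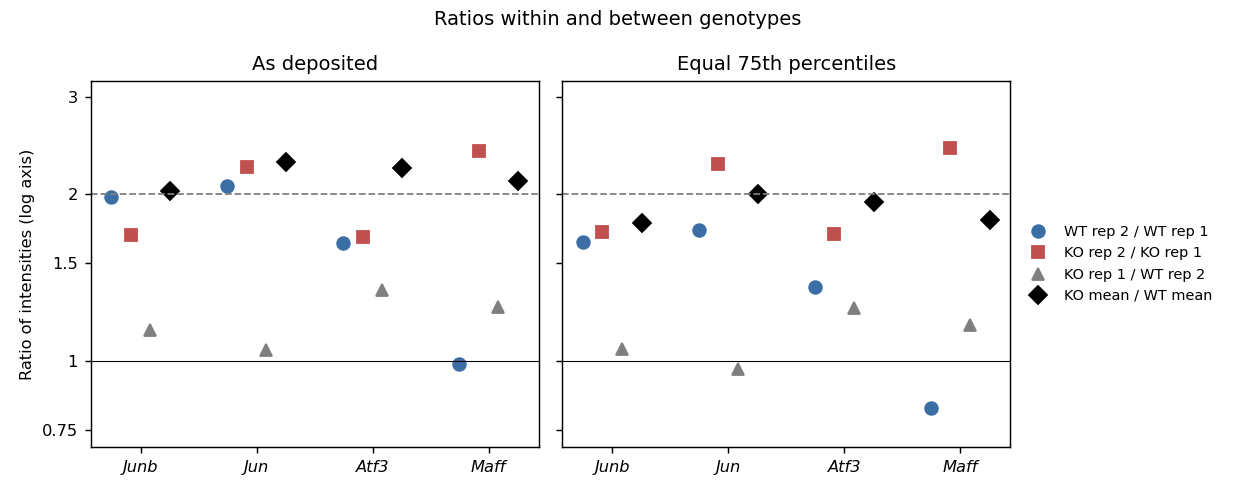
Ratios of intensities within a genotype (circles, WT replicate 2 over 1, and squares, Stk40 KO replicate 2 over 1), between the nearest arrays of the 2 genotypes (triangles, Stk40 KO replicate 1 over WT replicate 2) and between the genotype means (diamonds), on a log axis with a dashed line at 2. For Jun and Junb the within-genotype ratios lie near the ratio of means, and Stk40 KO replicate 1 differs little from WT replicate 2.

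The ratio of means hence depended on which arrays were averaged. Without Stk40 KO replicate 2 it was 1.41 for Jun, 1.51 for Junb, 1.67 for Atf3 and 1.25 for Maff, so that none reached 2. Without WT replicate 1 it was 1.69, 1.53 and 1.80 for Jun, Junb and Atf3, and Maff alone stayed above 2, at 2.13. Leaving out WT replicate 2 or Stk40 KO replicate 1 raised the ratio of Jun to 3.51 or 3.15 and that of Junb to 3.01 or 2.54. Fosl1 no longer counted as down without WT replicate 1, at a ratio of 0.55.

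**Figure D2:**
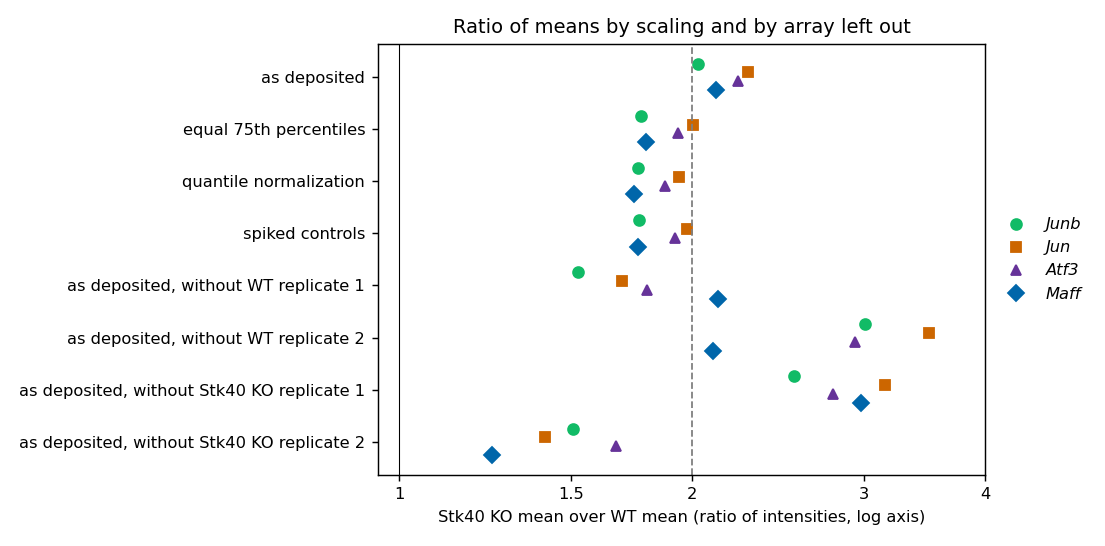
Ratio of the Stk40 KO mean to the WT mean for Junb, Jun, Atf3 and Maff (log axis, dashed line at 2) as deposited, under 3 scalings between arrays and with each array left out. The points move from 1.25 to 3.51, with the lowest values when Stk40 KO replicate 2 is left out.

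Over the 4 arrays, the log2 intensity of Jun, Junb and Atf3 moved almost in step, with a Pearson's r of 0.99 between Jun and Junb, 0.99 between Junb and Atf3 and 0.98 between Jun and Atf3. Maff was less like them, with 0.87 to Jun, 0.82 to Junb and 0.88 to Atf3. Part of this likeness is fixed by the choice of genes with a 2-fold change on the same arrays, and 1 reading alone is above the noise level. The 4 points also share the brightness of their array, and at equal 75th percentiles r was 0.76 between Junb and Maff and 0.99 between Jun and Junb.
Among 65 named probe sets with a mean above the noise level and at least a 2-fold range over the arrays, the one most like Junb was that of Cxcl10, a chemokine that interferon induces and that draws in T cells (r = 0.99 over 4 arrays). Cxcl10 read 87.2 and 185 in WT and 251 and 387 in Stk40 KO. Next came Hamp, the liver hormone hepcidin that lowers iron export, with 91.9 and 141 against 172 and 299 (r = 0.98). Both genes were higher on replicate 2 than on replicate 1 within each genotype, as Junb was. Slc13a3, a dicarboxylate transporter, Prss23, a serine protease, and Acpl2 followed (r = 0.94, 0.94 and 0.93). At equal 75th percentiles the first 4 of these were again among the 5 closest, and Olfm4 took the place of Acpl2. All candidates carry a 2-fold change between the genotypes, since other probe sets have no name, so part of the likeness is fixed by this choice. As deposited, both WT readings of Hamp, Slc13a3, Prss23 and Acpl2 lie under the noise level, as does Cxcl10 on WT replicate 1. Hamp, Slc13a3, Prss23 and Acpl2 thus reached the required mean only through their Stk40 KO arrays, where they are high. This fixes a further part of their likeness to Junb.

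**Figure D3:**
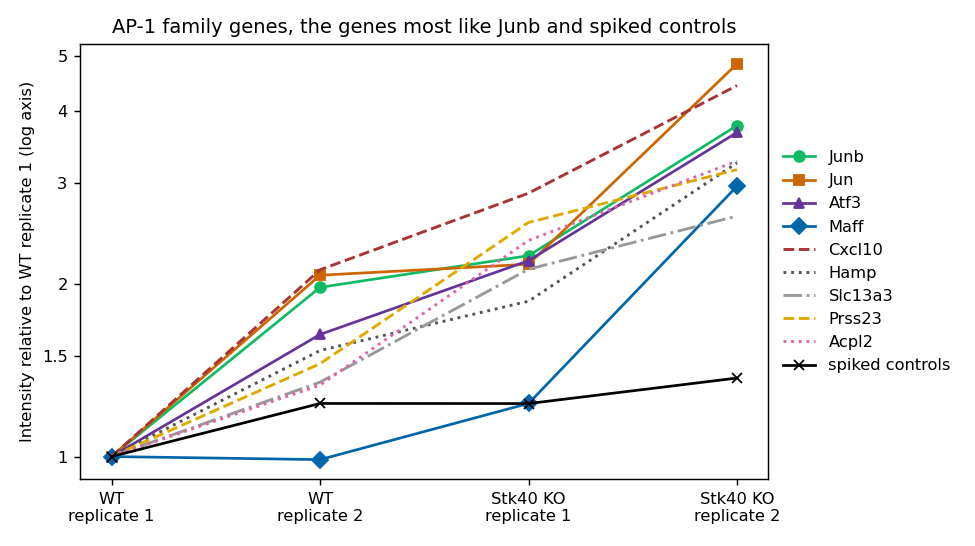
Intensity on each array relative to WT replicate 1 (log axis), as deposited, for Junb, Jun, Atf3 and Maff (solid lines), the 5 named genes most like Junb (broken lines) and the spiked hybridization controls (black, crosses), with lines joining the values of 1 probe set or set of controls. The controls reach 1.37 on Stk40 KO replicate 2, while Jun reaches 4.85 and Maff 2.96. All readings of Jun and Maff lie under the noise level, so these are ratios of readings and not folds of expression.

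Other genes of the pathway can be seen here only where the deposited table names them for a 2-fold change, so the counts below are of named genes and say nothing of the rest of each list. They are to be read beside the same rule over all probe sets, which gave 1247 up and 516 down as deposited and 819 up and 728 down at equal 75th percentiles. Of 28 further AP-1, ATF, Maf, NF-E2 and C/EBP genes, 1 is named. It is Nfe2l1, a partner of small Maf proteins, at 40.9 and 34.3 in WT and 8.91 and 24.2 in Stk40 KO, all under the noise level. Of 25 genes of the Jun N-terminal kinase and ERK cascades, 3 are named and all count as up, or 2 at equal 75th percentiles, where Map3k7 no longer does. Map3k7, the kinase TAK1 that relays TNF-α signals to that cascade, read 49.0 and 78.5 in WT and 133 and 150 in Stk40 KO. Only the last of these readings exceeds the noise level. The scaffold genes Mapk8ip1 and Mapk8ip3 were under 20 on every array.
Of 34 further immediate early genes, 5 are named, 4 of them up and 1 down, or 3 and 1 at equal 75th percentiles, where Ccn1 no longer counts. Ccn2 and Ccn1, which encode secreted matricellular proteins and stand in the table under the older symbols Ctgf and Cyr61, had the highest mean intensity. Ccn2 read 44.8 and 56.9 in WT and 128 and 195 in Stk40 KO, and Ccn1 40.5 and 54.1 against 47.7 and 143. Ccn1 thus resembles Maff in that 1 array, Stk40 KO replicate 2, carried its high mean. For both Ccn2 and Ccn1 the reading on that array is the single one above the noise level, for Ccn1 only just. Gadd45b, a stress sensor, read 5.0 and 1.55 in WT and 19.4 and 38.0 in Stk40 KO, all deep within the noise. Trib1 (up) and Egr3 (down), the other 2, were also under the noise level on every array.
Of 36 target genes of AP-1 and ATF factors, 4 are named, with Plau, Cdkn1a and Trib3 up and Fasl down. Trib3, a pseudokinase induced through ATF4, read 12.5 and 12.8 in WT and 29.1 and 77.2 in Stk40 KO by the brighter of its 2 probe sets. Cdkn1a, the cell cycle inhibitor p21, read 2.73 and 10.8 in WT and 13.6 and 35.5 in Stk40 KO. Plau, the urokinase gene, read 0.636 and 10.7 against 13.2 and 26.3. All values of these 4 genes lie under the noise level.
Of 14 heat shock genes, Hspa1b alone is named, by 3 probe sets that all count as up. By the brightest it read 65.5 and 69.5 in WT and 155 and 225 in Stk40 KO. These probes may not separate Hspa1b from its near-identical neighbour Hspa1a. It was the single gene of these 5 lists that limma could test, as deposited only, and it did not pass. It entered the test through its Stk40 KO arrays alone, with both WT values raised to the noise level, so its fitted difference is set by that floor and is not given.

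Markers of other cell types likewise have values here only where they were named for a 2-fold change, so that their readings differ between the genotypes follows from the naming. Of 15 neutrophil and granulocyte genes, 5 are named and all count as up (Ngp, Camp, Ltf, Mmp8 and Lcn2), or 4 at equal 75th percentiles, where Camp does not, and their summed intensity, with the brightest probe set of each gene, was 1747 and 1806 in WT and 4220 and 5932 in Stk40 KO. Of 14 macrophage and monocyte genes, Lyz2 and Marco are named and up, of which Lyz2 no longer counts at equal 75th percentiles. Their sum was 800 and 962 in WT and 1903 and 1920 in Stk40 KO, nearly all of it Lyz2 (781 and 930 against 1818 and 1854). Marco, and Mmp8 among the neutrophil genes, lie under the noise level on every array. Over all probe sets tested, limma called 2.25% as up as deposited and 1.21% at equal 75th percentiles. It called 4 of 4 tested neutrophil genes as up, and likewise Lyz2 and Col1a1, in both scalings. All of them are genes already chosen by fold, so nothing is read from these counts. Without Stk40 KO replicate 2 limma called 0 of the 4, and Lyz2 was not called without Stk40 KO replicate 1 or without Stk40 KO replicate 2. With the methods' t-test none of these genes passed.
Of 12 endothelial and stellate genes, Col1a1, Des and Acta2 are named and count as up. Of these, Col1a1 no longer counts at equal 75th percentiles. Their sum was 274 and 288 in WT and 559 and 668 in Stk40 KO. It was set almost wholly by Col1a1, at 267 and 291 against 517 and 644 by its brighter probe set. Des and Acta2 lie under the noise level on every array. Acta2 read -4.27 and -6.55 in WT and 1.09 and 0.182 in Stk40 KO. It counts as up through the raising of negative values, the step through which Fosl1 counts as down. Of 12 hepatoblast and hepatocyte genes Cps1 is named, at 103 and 108 against 1208 and 1646. Limma called Cps1 as up, but it entered the test only through its Stk40 KO arrays and had no test when all 4 arrays had to exceed the noise level. Of 12 erythroid, 8 mast cell and 8 megakaryocyte genes none is named, so the defining erythroid markers of the tissue have no value here, and of 10 lymphocyte genes Il7r is named, near 0 on every array. The part of these cell types in the values of the AP-1 genes was not tested.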

How the data were processed

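RNA of E14.5 fetal livers from WT and Stk40 KO embryos was hybridized to Affymetrix mouse 430 2.0 arrays. The authors deposited 1 linear intensity per probe set and array, in arbitrary units. MAS5 is named in the submitters' processing notes, and its version is not given in the sources used here. The values differ in form from MAS5 signals, since between 21.0% and 23.2% of them are negative on each array. Among the values 99.9% are multiples of 1/11 within 0.001, as an unscaled mean over 11 probe pairs gives. Gene symbols came from the authors' deposited table of 2-fold changes. Its values equal the intensities with those under 0.1 raised to 0.1, for all 1467 probe sets, and its columns of means, fold and counts were not used. RefSeq gene names (GRCm38.p6) matched 1197 of its 1345 symbols, and symbols updated through them (Ctgf to Ccn2) were used for the gene lists.

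The methods remove probe sets negative on all arrays or inconsistent within a genotype, raise values under 0.1 to it, take a 2-fold change and drop genes found in both directions. The last step was not applied here, since probe sets outside the table have no gene name. Inconsistent was read here as of opposite sign and the change as a ratio of genotype means. This rule called 1763 probe sets, among them 1466 of the 1467 in the deposited table. For limma (version 3.58.1 in R 4.3.3; lmFit, then eBayes with a trend), values under the noise level were raised to it and Benjamini-Hochberg adjustment was applied over all probe sets tested. Only 2 arrays per genotype measure the spread, which limits the precision. As deposited, the prior degrees of freedom that limma estimated were infinite, so the variance came from the trend alone. The script was tested on simulated data. For arrays scaled to equal 75th percentiles, the 75th percentile of the positive values was used. Alternatives were quantile normalization, spiked controls, another floor, filter, variance prior, fold threshold, leaving out each array, Student's t-test and the replicate number as a block. Genes outside the 5 were named as up to 4 of each list with the highest mean intensity, and the 5 nearest to Junb by Pearson's r, and any others named were added after their values were seen. The 5 genes and all lists were chosen with earlier results of these data known.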

Additional observations from a re-analysis of the deposited data

How the results depend on the processing

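As deposited, 4 of the 5 genes counted as up by the fold rule and 1 as down. The number up was 1 at equal 75th percentiles and 0 with quantile normalization, with scaling on spiked controls or with the floor at the noise level, and it ranged from 0 to 4 as each array was left out, also at equal 75th percentiles. The number down was 0 with quantile normalization, where Fosl1 was removed for opposite signs in WT, or with the noise level as the floor, and 0 to 1 with an array left out. Limma called 284 probe sets up and 11 down as deposited, 149 and 83 at equal 75th percentiles, 181 and 58 after quantile normalization and 153 and 47 with spiked controls, the last chosen after seeing the data. It called 88 and 3 when all 4 arrays had to exceed the noise level, and 211 to 8104 up and 1 to 57 down with each array left out, namely 8104 and 57 without WT replicate 2, 330 and 47 without WT replicate 1, 459 and 9 without Stk40 KO replicate 1 and 211 and 1 without Stk40 KO replicate 2. Student's t-test, which the paper did not describe for the arrays, gave 1 and 0 after adjustment, and 619 probe sets in either direction at an unadjusted p under 0.05. With the replicate number as a block limma called 313 and 12. The differences between replicates 2 and 1 correlated between the genotypes (r = 0.19 over tested probe sets, 0.24 at equal 75th percentiles), which for 2 pairs does not show that the numbers pair the arrays. Limma with a trend could not be fitted without a filter on low values, where 73.1% of values lay at the floor and 70.6% of probe sets had no residual variance. The cause of these shifts was not tested. Signal over background limits these values, since 1 of the 20 values of the 5 genes exceeds the noise level.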
